A study of Mus musculus with 27 samples.

Results

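Some joins between the Sμ and Sα switch regions use Sα DNA from beyond the interval where most Sα junctions lie. Here these are the joins that landed past the Sα core, on the side away from Sμ. They were chosen by position and orientation alone: between 114.49 and 114.497 Mb on chromosome 12 (mm9, rounded to the kb, 7167 bp in all), minus strand, which is the orientation of a join that deletes the DNA in between. There were 5485 of them, 7.32% of the 74883 deletional joins in the Sα window (114.49 to 114.51 Mb) and 2.84% of all 193201 junctions. The core (114.497 to 114.503 Mb) held 68485. Its edges came from an earlier look at these junctions, as the interval with most Sα junctions over all clones, so the overall share past the edge follows from that choice. The tables record where a join lies. They do not record how the DNA end was processed, so resection itself was not measured.

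The junctions were read by LAM-HTGTS, which sequences outwards from a fixed bait, here at the 5′ side of Sμ (chr12:114664780-114664913), and so reads the partner DNA, called the prey. The cells were CH12F3, mouse B cells in culture that can change their antibody class to IgA, and every group had been stimulated for 72 h with IL-4, αCD40 and TGFβ. The groups were PAXX-/-, XLF-/-, XLF-/-PAXX-/- and Ligase4-/-, each 2 clones with 3 libraries per clone, and WT, which was the parental line alone with 3 libraries. Each double mutant clone carried the PAXX loss of 1 PAXX-/- clone from which it was made, and Ligase4-/- clone 2 was obtained from elsewhere. Gene expression was not measured in these files, so the knockouts could not be checked here. Libraries were repeats within a clone, so tests by library do not take in how clones vary. WT was a single line, so for it that variation cannot be seen at all.

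During class switching, the deaminase AID starts breaks in the repetitive switch regions, and the broken ends of the donor and acceptor regions are joined. Classical non-homologous end joining makes most of these joins, often with no or few shared bases. DNA ligase 4 seals the ends, XLF stimulates the ligase complex, and PAXX is a related factor that binds Ku. Where this pathway is impaired, ends are joined by alternative routes, and ends that wait longer can be trimmed back by resection before they are joined. In the mouse the exons of the IgA constant region lie beyond Sα, on the side away from Sμ.

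The reads below show what such a join looks like in each genotype. For each genotype a microhomology join close to its median distance is printed, 5′ to 3′, with at least 2 shared bases. Bait sequence comes first, and the bases that bait and prey share are in capitals. Joins sharing fewer bases are not shown, so the printed lengths do not stand for all microhomology joins.
PAXX-/-: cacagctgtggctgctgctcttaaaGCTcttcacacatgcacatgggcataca
XLF-/-: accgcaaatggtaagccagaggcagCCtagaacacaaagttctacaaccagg
XLF-/-PAXX-/-: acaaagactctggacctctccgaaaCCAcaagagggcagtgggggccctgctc
Ligase4-/-: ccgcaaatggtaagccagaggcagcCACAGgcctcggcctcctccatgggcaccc
WT: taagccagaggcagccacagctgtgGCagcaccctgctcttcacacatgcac
Their prey stretches lie on the minus strand of mm9, with 25 bases shown on each side of the shared bases. The PAXX-/- read joined the bait to chr12:114496089-114496116, 552 bp past the core edge. The XLF-/- read reached chr12:114495707-114495733, 935 bp past it, and the XLF-/-PAXX-/- read chr12:114495659-114495686, 982 bp past it. In the Ligase4-/- read the prey was chr12:114495733-114495762, 906 bp past the edge, and in the WT read chr12:114496100-114496126, 542 bp past it. Shared lengths in these reads were 3, 2, 3, 5 and 2 bases in that order of genotypes.

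Direct joins have neither shared nor inserted bases. The reads printed next are 1 such join from Ligase4-/- and 1 from WT, with the prey in capitals.
Ligase4-/- direct: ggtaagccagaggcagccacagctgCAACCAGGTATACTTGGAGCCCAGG
WT direct: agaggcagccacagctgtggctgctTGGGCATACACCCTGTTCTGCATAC
The Ligase4-/- prey is chr12:114495690-114495714, 954 bp past the edge, and the WT prey is chr12:114496074-114496098, 570 bp past it.

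In XLF-/-, XLF-/-PAXX-/- and Ligase4-/- the share of Sα deletional joins past the core was 3.23 to 3.67 times that in WT. With loss of PAXX alone this share differed from WT by 0.440 points, which did not pass the test. These are shares of Sα deletional joins. Joins past the core as a share of all junctions were not compared between genotypes. The share past the core was 2.76% to 3.66% in the 6 PAXX-/- libraries (median 3.17%). It was 8.0% to 10.5% in XLF-/- (median 9.17%), 8.02% to 10.7% in XLF-/-PAXX-/- (median 10.3%) and 7.20% to 11.0% in Ligase4-/- (median 8.16%). The 3 WT libraries gave 2.62%, 2.44% and 3.10%. Every library without XLF or ligase 4 lay above every PAXX-/- and WT library, and the PAXX-/- libraries overlapped those of WT.

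As means with SD over libraries, the share was 3.16% ± 0.303 in PAXX-/-, 9.17% ± 0.912 in XLF-/-, 9.98% ± 1.04 in XLF-/-PAXX-/- and 8.80% ± 1.74 in Ligase4-/- (n = 6 each), and 2.72% ± 0.342 in WT (n = 3). Over the 9 clones, differences between the 5 genotypes took up 96.5% of the sum of squares (exact permutation over 945 splits, p = 0.0233). With Benjamini-Hochberg adjustment over all 50 planned tests this p was 0.0582, which misses the threshold of 0.05. Without any 1 clone of PAXX-/-, XLF-/- or XLF-/-PAXX-/-, or without WT, the exact p lay between 0.0524 and 0.102, while the genotype part stayed at 95.2% to 96.8%. Between Ligase4-/- clones the pooled share was 7.55% (95% interval 7.10% to 8.01%) in clone 1 and 9.93% (9.24% to 10.7%) in clone 2. These intervals are exact Clopper-Pearson intervals and cover counting error only.

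**Figure D1:**
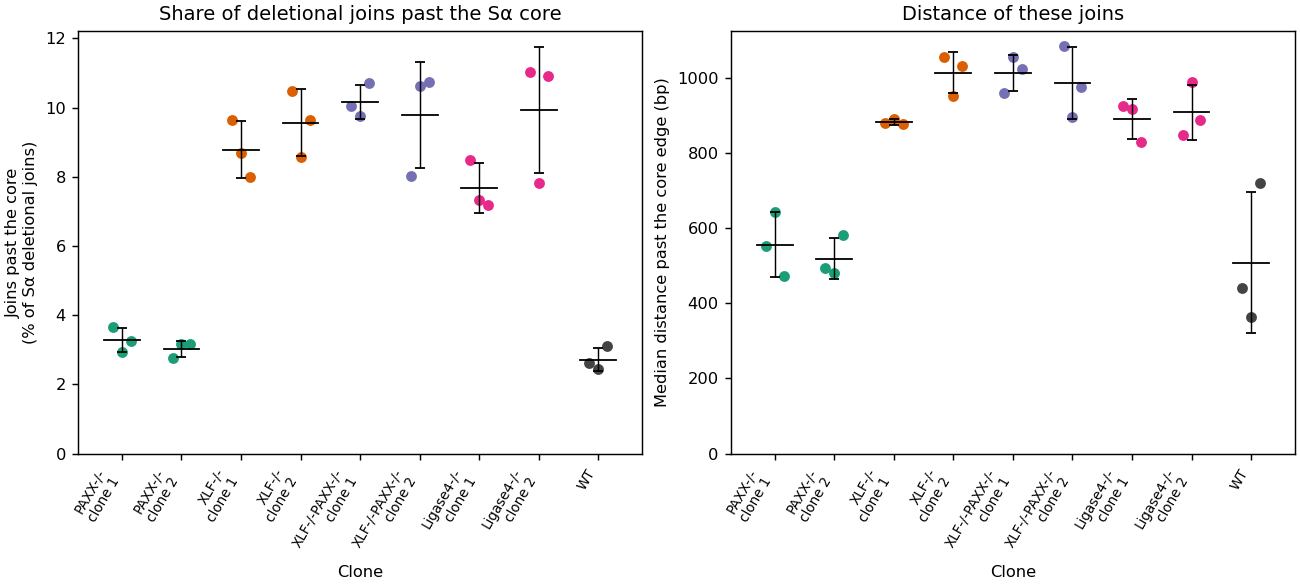
Share of Sα deletional joins that lay past the core (left, percent) and the median distance of these joins from the core edge (right, bp), by clone. Points are libraries, and bars are the mean and SD of 3 libraries. Both measures are higher in the XLF-/-, XLF-/-PAXX-/- and Ligase4-/- clones than in the PAXX-/- clones and WT, and the WT library with the longest median (720 bp) still lies below all libraries of those 3 genotypes.

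Comparisons by library gave the size of each difference. The share was 6.45 percentage points higher in XLF-/- than in WT (95% interval 5.15 to 7.77, 3.37-fold). It was 7.26 points higher in XLF-/-PAXX-/- (5.59 to 8.70, 3.67-fold) and 6.08 points higher in Ligase4-/- (3.34 to 8.82, 3.23-fold). In each of these comparisons all 6 mutant libraries exceeded all 3 of WT (exact permutation p = 0.0119, adjusted p 0.0397), and 6 against 3 libraries can give no lower p. PAXX-/- exceeded WT by 0.440 points (-0.145 to 1.02, exact p = 0.119), an interval that leaves out an excess of the size seen without XLF. This difference did pass with the window extended by 10 kb (0.549 points, exact p = 0.0476) and without the first library of PAXX-/- clone 2 (0.519 points, exact p = 0.0357).

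XLF-/- exceeded PAXX-/- by 6.01 points (5.14 to 6.90), in all 6 libraries, with an exact permutation p of 0.00216 and an adjusted p of 0.0271. These genotypes shared 2 sequencing runs. The difference was 6.86 points within the first of them, where the exact p cannot go below 0.333, and 5.59 points within the second (exact p = 0.0286). WT, XLF-/-PAXX-/- and Ligase4-/- shared no run with another genotype, so in their comparisons genotype cannot be told apart from run. Between XLF-/-PAXX-/- and XLF-/- the difference was 0.811 points (-0.489 to 2.04, exact p = 0.180). XLF-/-PAXX-/- differed from Ligase4-/- by 1.19 points (-0.642 to 3.01, exact p = 0.195). In neither pair did the difference pass the test. The excess of XLF-/-PAXX-/- over XLF-/- became detectable only without the first library of XLF-/-PAXX-/- clone 2 (1.2 points, exact p = 0.0238), and that over Ligase4-/- only without Ligase4-/- clone 2 (2.31 points, exact p = 0.0238).

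Joins also lay farther out in the genotypes with the larger shares. The median distance past the edge was 472 to 643 bp in PAXX-/- libraries (median 523.5 bp). In XLF-/- libraries it was 876.5 to 1055 bp (median 921 bp), in XLF-/-PAXX-/- 896 to 1085 bp (median 999.5 bp) and in Ligase4-/- 827.5 to 988 bp (median 902 bp). The WT libraries gave 440.5, 363 and 720 bp. The WT libraries differed among themselves more than those of any other genotype, and none reached the XLF-/-, XLF-/-PAXX-/- or Ligase4-/- range.

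Genotypes took up 97.4% of the sum of squares of the median distance, with p = 0.0265 by exact permutation and 0.0630 after adjustment. Comparisons by library were added after the data had been seen. XLF-/- exceeded WT by 440 bp (231 to 634), XLF-/-PAXX-/- by 491 bp (304 to 659) and Ligase4-/- by 391 bp (197 to 554). All 6 mutant libraries were higher in each, with an exact p of 0.0119 and an adjusted p of 0.0218 over the added tests. The Ligase4-/- excess was 249 bp and no longer passed (exact p = 0.0833) when the interval began 500 bp further from the bait. PAXX-/- differed from WT by 29.5 bp (-167 to 202, exact p = 0.738). XLF-/- exceeded PAXX-/- by 410 bp (315 to 506), in 6 of 6 libraries (exact p = 0.00216, adjusted p 0.0159). XLF-/-PAXX-/- exceeded Ligase4-/- by 101 bp (16.7 to 184), with overlapping libraries (exact p = 0.0260, adjusted p 0.0408). That call ended with the window extended by 10 kb (70.7 bp, exact p = 0.487) and with bait ends short of substituted positions (36.2 bp, exact p = 0.548). With the interval begun 500 bp further out the difference was -48.6 bp (exact p = 0.526). It also ended without the first library of XLF-/-PAXX-/- clone 2, the third of Ligase4-/- clone 1 or the first of Ligase4-/- clone 2 (exact p of 0.0519 to 0.0541).

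The counts per kb were highest next to the core edge in every genotype. In the first kb past the edge lay 379 joins of PAXX-/-, 660 of XLF-/-, 927 of XLF-/-PAXX-/-, 912 of Ligase4-/- and 108 of WT. In the second kb lay 77, 264, 402, 298 and 20 joins in the same order. The second step thus held 20.3% as many joins as the first in PAXX-/-, 40.0% in XLF-/-, 43.4% in XLF-/-PAXX-/- and 32.7% in Ligase4-/-, against 18.5% in WT. These ratios are pooled counts and were not tested.

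As a mean over libraries, the first step held 2.21% ± 0.327 of Sα deletional joins in PAXX-/-, 4.79% ± 0.343 in XLF-/-, 5.00% ± 0.696 in XLF-/-PAXX-/- and 4.73% ± 0.977 in Ligase4-/-, against 1.88% ± 0.0934 in WT. Over WT this was 1.18-fold, 2.55-fold, 2.67-fold and 2.52-fold. Beyond 1 kb the means were 0.952% ± 0.179 in PAXX-/-, 4.39% ± 0.681 in XLF-/-, 4.98% ± 0.441 in XLF-/-PAXX-/- and 4.07% ± 0.809 in Ligase4-/-, against 0.845% ± 0.257 in WT. Over WT this was 1.13-fold, 5.19-fold, 5.90-fold and 4.81-fold. The larger excess thus lay in the far stretch for each genotype without XLF or ligase 4. The difference between near and far folds was not tested.

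The far share was added after the data had been seen, and over the 9 clones it gave an exact permutation p of 0.0138 (adjusted p 0.0233), with genotypes taking up 96.2% of the sum of squares. By library it was higher than in WT in 6 of 6 libraries of XLF-/- (3.54 points, 2.55 to 4.59), of XLF-/-PAXX-/- (4.14 points, 3.43 to 4.84) and of Ligase4-/- (3.22 points, 2.05 to 4.40), each with an exact p of 0.0119 and an adjusted p of 0.0218. PAXX-/- differed from WT by 0.107 points (-0.242 to 0.457, exact p = 0.512). Between XLF-/-PAXX-/- and Ligase4-/- the far share differed by 0.914 points (0.0625 to 1.76, exact p = 0.0390), which misses the threshold after adjustment (adjusted p 0.0571).

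**Figure D2:**
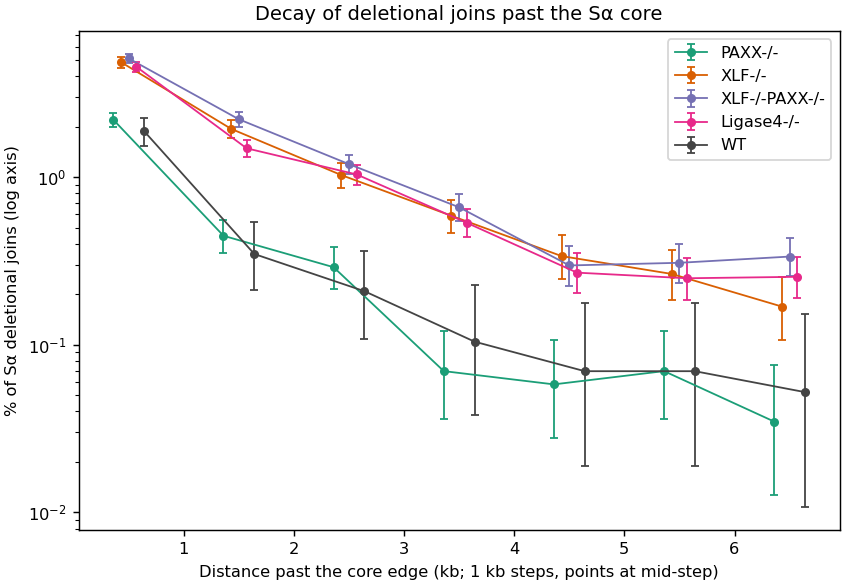
Deletional joins per 1 kb step past the core edge, as percent of the Sα deletional joins of a genotype (log axis), with libraries pooled and exact 95% binomial intervals. The lines of XLF-/-, XLF-/-PAXX-/- and Ligase4-/- start at 4.54% to 5.10% in the first kb and lie above those of PAXX-/- (2.20%) and WT (1.88%) at every step.

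Farther out the counts became small in PAXX-/- and WT. The third step (chr12:114493668-114494667) held 50 joins of PAXX-/-, 140 of XLF-/-, 217 of XLF-/-PAXX-/- and 208 of Ligase4-/-, against 12 of WT. The seventh (chr12:114489668-114490667) held 6, 23, 61 and 51 joins in the same order, against 3 of WT. Joins thus reached the seventh step of the 7167 bp interval in every genotype. The farthest lay at 7125 bp in PAXX-/-, 7150 bp in XLF-/-, 7162 bp in XLF-/-PAXX-/-, 7059 bp in Ligase4-/- and 6757 bp in WT. The share of joins past the core that lay within 500 bp of the edge was 46.2% in PAXX-/-, 29.6% in XLF-/-, 25.5% in XLF-/-PAXX-/- and 29.6% in Ligase4-/-, against 49.0% in WT.

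The edge itself was not a step in the data. The 100 bp just past it held 73 joins of PAXX-/-, 77 of XLF-/-, 52 of XLF-/-PAXX-/-, 110 of Ligase4-/- and 27 of WT. The 100 bp just inside the core held 85, 95, 43, 109 and 22 joins in the same order.

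Joints past the core differed in structure between genotypes, with few direct joins wherever XLF or ligase 4 was missing. Direct joins made up 12.4% to 21.0% of the joins past the core in PAXX-/- libraries (median 16.7%). The range was 3.72% to 8.63% in XLF-/- (median 5.16%), 4.60% to 7.79% in XLF-/-PAXX-/- (median 5.34%) and 3.04% to 8.59% in Ligase4-/- (median 5.38%). WT libraries gave 21.2%, 22.7% and 19.7%. No library without XLF or ligase 4 reached the lowest PAXX-/- library, and PAXX-/- overlapped WT.

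As means over libraries, direct joins were 16.6% ± 3.44 in PAXX-/-, 5.89% ± 2.07 in XLF-/-, 5.61% ± 1.16 in XLF-/-PAXX-/- and 5.78% ± 2.37 in Ligase4-/- (SD, n = 6 each), against 21.2% ± 1.53 in WT (SD, n = 3). Genotypes took up 98.4% of the sum of squares over the 9 clones, with p = 0.0148 by exact permutation and 0.0418 after adjustment. Without WT the exact p was 0.133 over the 8 clones that remain, with genotypes at 97.1%. Against WT the difference was -15.3 points in XLF-/- (-18.9 to -11.4), -15.6 in XLF-/-PAXX-/- (-17.7 to -13.7) and -15.4 in Ligase4-/- (-19.0 to -11.2). All 6 mutant libraries were lower in each, with an exact p of 0.0119 and an adjusted p of 0.0397.

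PAXX-/- differed from WT by -4.60 points (-9.56 to 0.0445, exact p = 0.0595), which did not pass. Without the first library of PAXX-/- clone 1 it was -5.48 points and passed (exact p = 0.0357). XLF-/- lay 10.7 points below PAXX-/-, as a difference of -10.7 (-14.5 to -6.93), in 6 of 6 libraries (exact p = 0.00216, adjusted p 0.0271). Within the shared runs this difference was -15.7 and -8.21 points. Between XLF-/-PAXX-/- and XLF-/- it was -0.285 points (-2.43 to 1.86, exact p = 0.810), and between XLF-/-PAXX-/- and Ligase4-/- -0.167 points (-2.65 to 2.26, exact p = 0.883). Differences of more than about 3 points are outside both intervals.

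Microhomology joins, which share at least 1 base, were more frequent wherever XLF or ligase 4 was missing. They made up 50.0% to 64.9% of joins past the core in PAXX-/- libraries (median 60.4%). In XLF-/- they were 75.9% to 81.9% (median 79.2%), in XLF-/-PAXX-/- 68.8% to 74.0% (median 73.6%) and in Ligase4-/- 72.3% to 82.6% (median 76.2%). WT libraries gave 55.8%, 63.6% and 54.1%. All libraries without XLF or ligase 4 lay above all WT and PAXX-/- libraries.

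Means were 59.7% ± 5.22 in PAXX-/-, 78.9% ± 2.25 in XLF-/-, 72.2% ± 2.45 in XLF-/-PAXX-/- and 76.8% ± 3.77 in Ligase4-/- (SD, n = 6 each), against 57.8% ± 5.09 in WT (SD, n = 3). Over the 9 clones the genotypes took up 95.5% of the sum of squares, with p = 0.0159 by exact permutation and 0.0418 after adjustment. Without PAXX-/- clone 1 the exact p was 0.0595, and without XLF-/-PAXX-/- clone 1 it was 0.0571. Against WT the share was 21.0 points higher in XLF-/- (15.8 to 26.1), 14.3 in XLF-/-PAXX-/- (9.44 to 19.5) and 19.0 in Ligase4-/- (11.0 to 25.9). Each held in 6 of 6 libraries, with an exact p of 0.0119 and an adjusted p of 0.0397. PAXX-/- differed from WT by 1.83 points (-6.46 to 10.1, exact p = 0.595).

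The microhomology share was 19.2 points higher in XLF-/- than in PAXX-/- (14.7 to 24.4, 6 of 6 libraries, exact p = 0.00216, adjusted p 0.0271), and 25.9 and 15.8 points higher within the shared runs. Between XLF-/-PAXX-/- and XLF-/- it differed by -6.71 points (-9.85 to -3.62, exact p = 0.00216, adjusted p 0.0271), with all 6 libraries of XLF-/-PAXX-/- lower. The difference depended on which bait ends were counted. Many reads of both XLF-/-PAXX-/- clones carried a base other than that of WT at bait position 114664844 (37.8% and 42.6% of reads covering it). The same held in PAXX-/- clone 2 at that position (40.0%) and at 114664845 (50.9%), and in XLF-/- clone 1 at 114664833 (47.0%). When only bait ends short of these positions were counted, the difference was -1.67 points (exact p = 0.407). That restriction also changed which bait ends and how many joins were compared, so the part of the substitutions in it was not tested. Between XLF-/-PAXX-/- and Ligase4-/- it was -4.66 points (-9.00 to -0.707, exact p = 0.0368, adjusted p 0.0736), and 1.92 points with those bait ends only (exact p = 0.459).

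**Figure D3:**
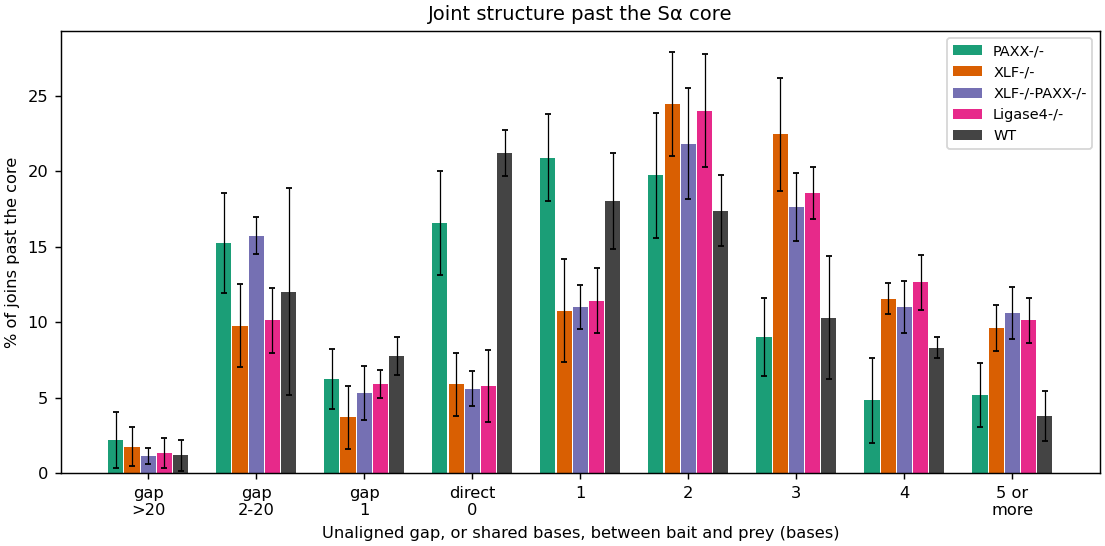
Joint structure of the joins past the core: percent of joins by the number of shared bases, with 0 for direct joins and gaps for unaligned (inserted) bases. Bars are means over libraries (6 per mutant genotype, 3 for WT) and error bars are SD. Direct joins are the tallest class in WT (21.2%), while 2 shared bases are the most common class in XLF-/- (24.4%), XLF-/-PAXX-/- (21.8%) and Ligase4-/- (24.0%).

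The shared stretches were also longer. Mean microhomology length was 2.30 ± 0.196 bases in PAXX-/-, 2.94 ± 0.0866 in XLF-/-, 3.01 ± 0.149 in XLF-/-PAXX-/- and 2.93 ± 0.0758 in Ligase4-/-, against 2.44 ± 0.295 in WT. Genotypes took up 98.0% of the sum of squares over the 9 clones (exact permutation p = 0.0159, adjusted p 0.0418). Without either PAXX-/- clone, either XLF-/- clone, Ligase4-/- clone 1 or WT the exact p lay between 0.05 and 0.114, with genotypes still at 97.2% to 98.0%. Joins with 3 shared bases were 9.01% of joins past the core in PAXX-/-, 22.5% in XLF-/-, 17.6% in XLF-/-PAXX-/- and 18.6% in Ligase4-/-, against 10.3% in WT. Those with 5 or more were 5.18%, 9.62%, 10.6% and 10.1% in the same order, against 3.80% in WT. Joins with a single shared base ran the other way, at 20.9%, 10.8%, 11.0% and 11.4%, against 18.0% in WT. These single classes were not tested.

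Joins with unaligned bases between bait and prey, counted as insertions, made up 23.7% ± 5.03 in PAXX-/-, 15.2% ± 0.926 in XLF-/-, 22.2% ± 1.70 in XLF-/-PAXX-/- and 17.4% ± 2.49 in Ligase4-/-, against 21.0% ± 6.55 in WT. Over the 9 clones the exact permutation p was 0.0455 and the adjusted p 0.0875, with genotypes at 85.5% of the sum of squares. This one ended under several alternatives, among them leaving out single libraries. Gaps of 2 to 20 bases were the larger part of it in each genotype, from 9.77% of joins past the core in XLF-/- to 15.7% in XLF-/-PAXX-/-.

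Set against the core of the same clones, joins past it had more microhomology and fewer insertions. Averaged over the 9 clones, microhomology joins were 70.3% past the core and 66.2% in it, a difference of 4.14 points, higher in 9 of 9 clones (exact sign-flip permutation p = 0.00391, the smallest possible, adjusted p 0.0326). Insertions were 19.8% past the core and 23.8% in it, lower in 9 of 9 clones by 4.0 points (exact p = 0.00391, adjusted p 0.0326). Direct, microhomology and insertion joins together make up all joins, and the direct share differed by only -0.131 points. The higher microhomology share and the lower insertion share are therefore not separate results. Mean microhomology length was 2.76 bases past the core and 2.63 in it, higher in 7 of 9 clones (exact p = 0.0156, adjusted p 0.0418).

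Direct joins were 9.88% past the core and 10.0% in it, and the difference of -0.131 points did not pass (exact p = 0.789). With only bait ends short of the substituted positions it was -1.69 points (exact p = 0.0117). In WT the direct share was 21.2% past the core and 18.5% in it, and it was higher past the core in 3 of 3 libraries, where the exact p cannot go below 0.25. In PAXX-/- it was 16.6% past the core and 16.9% in it, and in XLF-/- 5.89% and 6.45%. XLF-/-PAXX-/- had 5.61% past the core and 5.94% in it, and Ligase4-/- 5.78% and 6.51%. The difference between both intervals did not itself differ detectably between the 5 genotypes, for direct joins (exact p = 0.551) or for microhomology (exact p = 0.221). Without either Ligase4-/- clone the direct difference did pass (exact p = 0.0310 each).

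**Figure D4:**
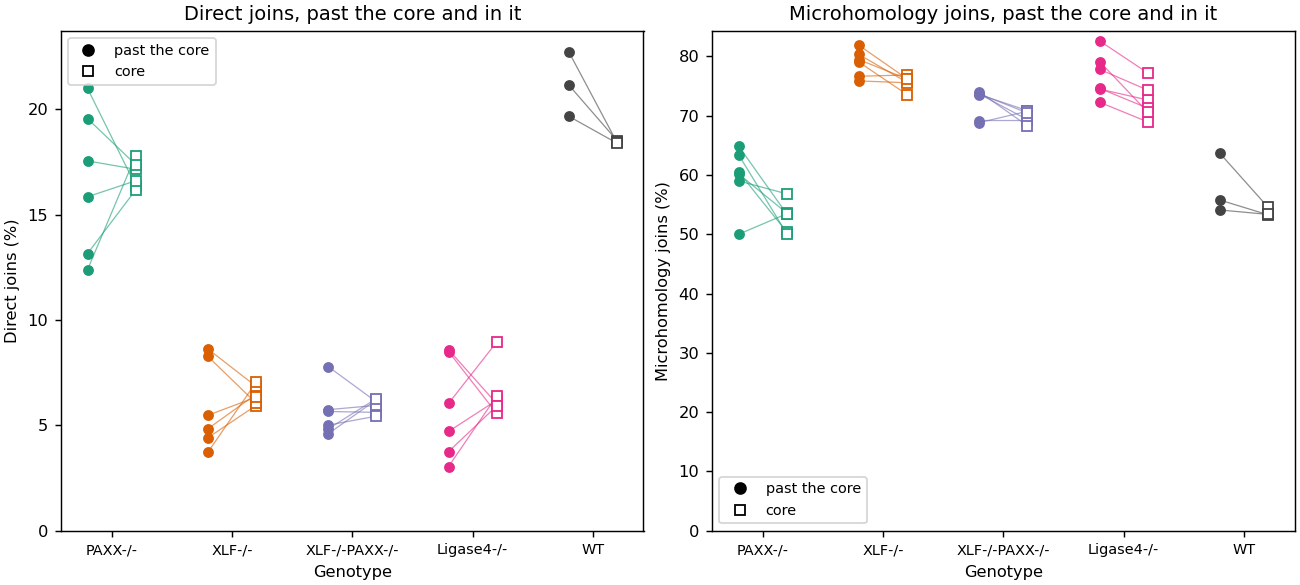
Direct (left) and microhomology (right) joins as percent of deletional joins past the core (filled circles) and in the core (open squares), by genotype, with a line for each library. In all 9 clones the mean microhomology share is higher past the core, and direct shares show no common direction.

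Within a genotype, joins far from the edge were set beside those near it. Direct joins were 14.2% of those over 1 kb out and 17.4% of those nearer in PAXX-/-. Far out against near, XLF-/- had 5.24% against 6.06%, XLF-/-PAXX-/- 5.23% against 5.61%, Ligase4-/- 6.74% against 5.04%, and WT 24.5% against 19.4%. In each genotype the exact 95% intervals of the far and near shares overlapped. Mean microhomology length was 2.52 bases far out and 2.17 nearer in PAXX-/-. XLF-/- had 3.05 against 2.87 bases, XLF-/-PAXX-/- 2.96 against 3.01, Ligase4-/- 3.0 against 2.89, and WT 2.58 against 2.39. These pooled values were not tested.

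The sequence beside the joins was unlike that of the core. Sα repeats are rich in AGCT, a palindrome (the same on either strand) that is a preferred AID target. Among joins with at least 50 prey bases, AGCT occurred in the first 50 in 18.8% past the core (928 of 4946), against 59.9% in the core (37459 of 62582) and 23.7% for prey on other chromosomes (6760 of 28484). The share past the core lay between 16.8% and 22.0% by clone, and that in the core between 53.2% and 71.3%, without overlap. G made up 25.5% to 27.3% of these prey bases past the core by clone, against 31.0% to 35.1% in the core. These are descriptions of where the reads fall, and a motif in a window is not a site of deamination.

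**Figure D5:**
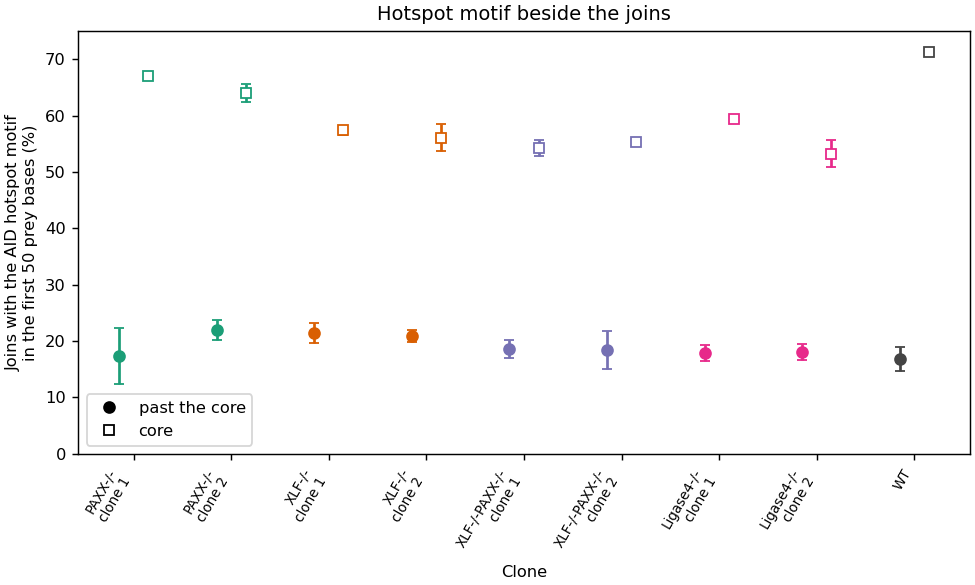
Percent of joins whose first 50 prey bases hold the AID hotspot motif, past the core (filled circles) and in the core (open squares), by clone, as mean and SD of 3 libraries. All clones lie at 16.8% to 22.0% past the core and at 53.2% to 71.3% in it.

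The bases that bait and prey share were counted in both intervals, without a test. With genotypes pooled, shared stretches of 4 bases past the core were most often AGGC (7.41%, 44 of 594), closely followed by CACA and CCAG (37 each). The order differed by genotype: AGGC led in XLF-/- and Ligase4-/-, CACA in XLF-/-PAXX-/- (18 of 199, against 15 for AGGC), and PAXX-/- and WT had only 26 and 13 such joins. In the core GCTG led in every genotype, from 13.5% in XLF-/-PAXX-/- to 38.6% in WT. With genotypes pooled, AGGC made up 12.2% there (762 of 6225), more than past the core. Shared stretches of 4 or more bases held AGCT in 5.31% of joins past the core (59 of 1112), against 16.0% in the core (1673 of 10473). GC content of the shared bases was 60.9% past the core and 61.4% in it.

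Joins past the core were spread over many positions. They fell on 2483 distinct positions, of which 1398 were seen in a single clone and 121 in 5 or more clones. The 5 positions found in the most clones all lay within 364 bp of the edge. The 30 prey bases that start at each are printed here, with any AGCT in capitals, to show the ends that recurred across clones.
114496362: gcAGCTtctaacccaaacaagacagggata
114496349: caaacaagacagggatagatggagcaaaag
114496602: gcctgtgcatacctatgagcatgcatatat
114496534: gcacctgccctgtgaatgtgcaatgagtga
114496304: gctggtgccgtgtgggggtcacaatagaga
On the minus strand of mm9 these stretches are chr12:114496333-114496362, chr12:114496320-114496349, chr12:114496573-114496602, chr12:114496505-114496534 and chr12:114496275-114496304. The first and second positions each held 12 joins from 8 clones, and the other three held 13, 12 and 12 joins from 7 clones. Of these, 10, 9, 12, 11 and 10 were microhomology joins and 1 was direct, beside 73.5% microhomology among all joins past the core (4032 of 5485). They came from 5 to 9 different bait ends per position.

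A pair of other positions was picked after their values had been seen, and they are shown as the position with the most joins and the one with the largest share from a single genotype.
114496225: gccacgcaccctcagtaggccatccctgaa
114494131: gtttcagAGCTaagaccgacgtgacaactt
The position with the most joins was 114496225 (chr12:114496196-114496225, 443 bp past the edge), with 23 joins from 14 libraries: 7 of XLF-/-, 6 of XLF-/-PAXX-/-, 10 of Ligase4-/- and none of PAXX-/- or WT. Since PAXX-/- and WT gave only 9.99% and 2.86% of all joins past the core, their overall share would put few of the 23 joins there. Of the 23 joins, 21 had microhomology and none was direct. Position 114494131 (chr12:114494102-114494131, 2537 bp past the edge) held 12 joins, 8 of them of PAXX-/-, 2 of XLF-/-PAXX-/- and 2 of Ligase4-/-. These 12 joins came from only 7 libraries of 5 clones and from 5 different bait ends. Lines that repeated another join of the same library were 27 of the 5485, or 0.492%.

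The other side of the core and the other orientation give the scale of these shares. Deletional joins in the Sα window on the bait-proximal side of the core were 0.452% of Sα deletional joins in PAXX-/-, 1.52% in XLF-/-, 1.67% in XLF-/-PAXX-/- and 1.45% in Ligase4-/-, against 0.573% in WT. Of the inversional joins in the Sα window, 6.04% lay in the interval past the core in PAXX-/- (34 of 563), 7.23% in XLF-/- (161 of 2227), 5.94% in XLF-/-PAXX-/- (212 of 3569) and 6.19% in Ligase4-/- (225 of 3632), against 3.56% in WT (10 of 281). Deletional joins made up a share of all joins in the interval past the core that was 90.7% over the 9 clones, against 90.3% in the core (exact sign-flip p = 0.684). That average joins opposite shifts. Past the core minus in it, the deletional share was -3.33 points in PAXX-/- (-9.17 to -1.44, lower in 6 of 6 libraries) and 3.79 points in XLF-/-PAXX-/- (1.94 to 5.72, higher in 6 of 6). It was -0.0576 points in XLF-/-, 1.89 in Ligase4-/- and -1.20 in WT, each with libraries of both signs. These differences by genotype were not tested. The bait alignment was 64.7 bases long past the core and 65.6 in it (exact p = 0.0859).

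Libraries held 3610 to 14524 junctions, and 44 to 399 joins past the core. By clone, PAXX-/- had 344 and 204 of them, XLF-/- had 757 and 495, XLF-/-PAXX-/- had 940 and 904, and Ligase4-/- had 979 and 705, against 157 in WT. The WT joint structure thus rests on the fewest joins: the exact 95% interval of its pooled direct share, 21.0%, ran from 14.9% to 28.2%.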

How the data were processed

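Bowtie2 and the mm9 build were used by the authors, per the submitters' processing notes, with the rest of the pipeline not given in the sources used here. In the authors' deposited tables each line is 1 junction, in units other than counts: where bait and prey align on the read and on the genome. One table pools the 3 libraries of a clone, and a library column tells them apart without replicate numbers, so libraries were numbered by name only.

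Overlap, the count of read bases in both alignments, was above 0 for microhomology, 0 for direct joins and below 0 for insertions. Genotypes were compared over clones (means of their libraries) by exact permutation of the sum of squares between genotypes, pairs of genotypes by exact two-sided permutation of libraries with intervals from inverting that test, and both intervals by exact sign flips. The genotype test takes clones as independent, which the shared origin of the double mutants may break. Benjamini-Hochberg adjustment covered 50 planned tests, of which 26 fell under 0.05 before and 19 after it. The members, lists and tests were chosen with earlier results of these data known. Shares over and within 1 kb and distances by library were added after seeing the data and adjusted on their own. Positions were named by the number of clones, then of joins. Alternatives were repeated lines collapsed, an interval starting 500 bp further out, a window 10 kb longer, gaps over 20 bases left out, bait ends short of substitutions, both orientations as denominator, libraries pooled, shared runs, and each library or clone left out. Scripts were tested on simulated data. The tools were Python 3.11.15 with scipy 1.17.1, numpy 2.4.6 and pandas 2.3.3. No mm9 annotation was used here, so no exon positions are given.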

Additional observations from a re-analysis of the deposited data

Results flagged for a closer look

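A library stood apart from the other 5 of its genotype in 2 of 24 groups examined, where chance gives about 1 in 20. The share of Sα deletional joins past the core was 8.02% in the first library of XLF-/-PAXX-/- clone 2, against 9.76% to 10.7% in the other 5 libraries of that genotype. The direct share of joins past the core was 7.79% in the second library of XLF-/-PAXX-/- clone 1, against 4.60% to 5.75% in the others.

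Deletional joins continued beyond the far edge of the Sα window. In the tenth kb past the core edge (chr12:114486668-114487667) they amounted to 0.485% of Sα deletional joins in XLF-/-, 0.503% in XLF-/-PAXX-/- and 0.429% in Ligase4-/- as means over 6 libraries, against 0.0673% in WT. In counts these were 69, 92 and 87 joins against 4 in WT, and PAXX-/- had 16. In each of these 3 genotypes this step held more joins than the steps next to it on either side, where XLF-/- had 27 and 40 joins, XLF-/-PAXX-/- had 24 and 47, and Ligase4-/- had 27 and 50. A cause was not tested.

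The deletional share of joins past the core minus that in the core moved in opposite directions in a pair of genotypes. It was 3.79 points in XLF-/-PAXX-/-, above 0 in 6 of 6 libraries, and -3.33 points in PAXX-/-, below 0 in 6 of 6. The difference between the genotypes was not tested.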

How the results depend on the processing

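No paired analysis was possible because the library names carry no replicate numbers by which to pair libraries of different genotypes. Both intervals were compared within clones, and permuting XLF-/- and PAXX-/- libraries within their shared runs kept the share difference of 6.01 points (exact p = 0.00476). WT has a single line, libraries of a genotype share clones, and WT holds the fewest joins past the core, so its joint structure is the least precise. Of the alternatives other than leaving samples out, 377 stayed on the same side of the threshold, and 29 did not. A change of sign without passing would still count among the 377. Causes were not tested.

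With only bait ends short of the substituted positions, the genotype part of the median distance was 89.99% and of insertions 78.1%, and neither passed. The direct share, past the core minus in it, was then -1.69 points and passed, and the microhomology difference between XLF-/-PAXX-/- and XLF-/- was -1.67 points and did not. That between XLF-/-PAXX-/- and Ligase4-/- turned to 1.92 points (reported: -4.66). Past the core minus in it, microhomology was then 11.3 points in PAXX-/- and 5.89 in XLF-/-, and its mean length 0.313 bases in PAXX-/- (turned, reported: -0.0260) and 0.377 in XLF-/-, all passing.

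Starting the interval 500 bp further out gave 81.2% for insertions (not passing) and -4.49 points for microhomology between XLF-/-PAXX-/- and Ligase4-/- (not passing). The distance between these 2 genotypes turned to -48.6 bp (otherwise 101 bp). Past the core minus in it, length in XLF-/- was 0.189 bases (passing) and microhomology in Ligase4-/- 4.60 points (not passing). With a window 10 kb longer, the share in PAXX-/- exceeded WT by 0.549 points and passed (exact p = 0.0476). Bait length then differed by -1.06 bases and passed, microhomology past the core minus in it was 8.13 points in PAXX-/- and 3.61 in XLF-/- (passing), and between XLF-/-PAXX-/- and Ligase4-/- it was -4.25 points (not passing). Pooled libraries gave 87.5% for insertions, and collapsing repeated lines gave 0.165 bases for length in Ligase4-/-, neither passing. Within the first shared run XLF-/- differed from PAXX-/- by 6.86 points in share, -15.7 in direct and 25.9 in microhomology joins, with too few libraries to pass.

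Leaving out each library or clone in turn left 939 results on the same side of the threshold, ended 100 calls and added 8. Some of the 939 changed sign without passing, such as direct joins past the core minus in it (-0.489 to 0.204 points). Against WT, a call is lost by construction once a clone is left out, since 3 against 3 libraries cannot go below an exact p of 0.1. Sign-flip tests within a genotype also lose their calls by construction, since without any 1 library the exact p cannot go below 0.0625. These were length in XLF-/-PAXX-/- and both microhomology and length in Ligase4-/-, past the core minus in it. The genotype part ranged from 93.6% to 99.5% for the share, 96.4% to 99.7% for the distance, 96.9% to 99.8% for direct joins, 93.8% to 98.3% for microhomology, 70.5% to 92.9% for insertions, 95.1% to 99.7% for length and 2.41% to 94.9% for the direct difference between both intervals. Against WT, PAXX-/- ranged from 0.314 to 0.566 points in share and -5.48 to -3.76 in direct joins, each passing when 1 particular library was left out. In share, direct joins and microhomology, XLF-/- ranged from 6.06 to 6.84, -15.8 to -14.9 and 20.4 to 21.6 points. XLF-/-PAXX-/- ranged from 7.07 to 7.66, -16.0 to -15.2 and 12.7 to 15.9, and Ligase4-/- from 4.95 to 7.20, -16.9 to -13.9 and 16.0 to 22.0. XLF-/-PAXX-/- against XLF-/- ranged from 0.422 to 1.20 points in share, and against Ligase4-/- from 0.0647 to 2.31 in share and -7.69 to -1.63 in microhomology. Past the core minus in it, bait length ranged from -1.08 to -0.595 bases, length from 0.164 to 0.313 in XLF-/-PAXX-/- and 0.145 to 0.1998 in Ligase4-/-, and microhomology from 2.83 to 5.81 points in Ligase4-/-.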
